A study of Rattus norvegicus with 4 samples.

Results

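Genes of the muscle side of the neuromuscular junction were followed over 4 arrays of rat skeletal muscle. They were the acetylcholine receptor subunits Chrna1, Chrnb1, Chrnd, Chrne and Chrng, the junction organisers Musk and Rapsn, and acetylcholinesterase, Ache, with its collagen tail, Colq. Members were taken by gene symbol from the array's platform annotation, which gave 10 of 31099 probe sets for 8 of the 9 genes. No probe set carried the symbol Ache alone, so Ache has no value here. Of the 9 genes, 6 were above the floor (a signal of 30.1, at the 50th percentile of the values on the arrays) on at least 1 array, as were 10092 of 14218 genes in all. Chrng and Musk were under it on every array.

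The arrays held skeletal muscle RNA of F344/DuCrlCrlj rats in a model of intermittent claudication, leg pain on walking from reduced blood flow. The 4 groups, with 1 array each, were sham, ischemia without treatment, ischemia with ES (electrical stimulation) and ischemia with exercise. The study set both treatments against untreated ischemia, on its stated premise that each makes the muscle contract through its nerve. The sources used here do not give the age and sex of the rats, the muscle, the number of animals per array, or the schedule of surgery and treatment. With no replicate, no difference below has an error or a test, neighbouring levels cannot be told apart by a spread, and each ratio describes 2 arrays. The ES and the exercise ratios share the ischemia array, and the sham array serves 3 comparisons.

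At the junction the motor nerve releases acetylcholine onto a receptor made of 5 subunits packed into a small patch of the fibre. Agrin from the nerve acts through Lrp4 and Musk, with Dok7 and rapsyn, to cluster the receptor there. Muscle that loses its nerve or its electrical activity is known to switch receptor subunit genes on along the whole fibre, through myogenin and related factors that bind E-boxes. At the synapse ETS factors acting on N-boxes are known to support transcription from the nuclei below the nerve ending.

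All 11 skeletal muscle fibre markers were above the floor on every array, and their summed signal lay between 100630 and 116780. The median signal of an array lay between 29.0 and 31.8. The ratio of 3' to 5' actin probe signals, which grows as RNA degrades, was 5.94 on the ES array and between 3.81 and 4.38 on the others. The same ratio for GAPDH was 1.26 on the ES array and between 1.04 and 1.16 on the others. The summed signal of 8 endothelial markers was 4579 on the ES array and between 2224 and 2381 on the others. That of 12 macrophage markers was 4056 with ischemia and 4955 with ES, against 1698 in sham and 1748 with exercise. The part of these differences in any result below was not tested, and in bulk muscle fewer cells of a type and less RNA per cell cannot be told apart.

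Among the receptor subunits, Chrna1 and Chrnd were highest on the ES array, Chrnb1 hardly differed between arrays, Chrne was above the floor with ES alone, and Chrng was never above it. Chrna1 encodes the alpha subunit, which takes part in binding acetylcholine. Its signal was 126 in sham, 118 with ischemia, 274 with ES and 225 with exercise. Both treated arrays were therefore above both untreated ones, which differed by 1.07-fold. Against untreated ischemia, Chrna1 was 2.33-fold higher with ES and 1.92-fold higher with exercise, and the treated arrays differed by 1.22-fold.

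Chrnd encodes the delta subunit. Its signal was 132 in sham, 55.7 with ischemia, 265 with ES and 89.6 with exercise. The order from low to high was thus ischemia, exercise, sham and ES, unlike that of Chrna1, where exercise stood above sham. Chrnd was 2.36-fold lower with ischemia than in sham. With ES it was 4.76-fold higher than with ischemia, and with exercise 1.61-fold higher. ES was also 2.96-fold above exercise. The ratio of ES to sham, 2.01-fold, sat at the 2-fold limit and fell to log2 values of 0.93 to 0.96 (under 2-fold) under quantile or loess normalization or with a pseudocount of 16 in place of the floor.

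Chrnb1 encodes the beta subunit. Its signal was 140 in sham, 158 with ischemia, 155 with ES and 128 with exercise, a range of 1.24-fold. A further Chrnb1 probe set stayed between 1.51 and 3.79, far under the floor, and gives no ratio.

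The epsilon and gamma subunits replace each other in the receptor: gamma marks the fetal and the denervated muscle, epsilon the mature junction. Chrne had a signal of 13.1 in sham, 4.87 with ischemia, 55.4 with ES and 18.6 with exercise. All but that with ES lie under the floor, where signals have no order, and the ES array was at least 1.84-fold above each of the others. With a floor at the 30th percentile (a signal of 10.9), the log2 ratio of Chrne between ES and ischemia was at least 2.34, and past 2-fold. Chrng, the fetal subunit gene, gave 5.12, 3.87, 5.41 and 2.15 in the same order of arrays, all under both floors. The gamma probe set thus showed no signal above the floor on the array where the alpha, delta and epsilon probe sets were at their highest.

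**Figure D1:**
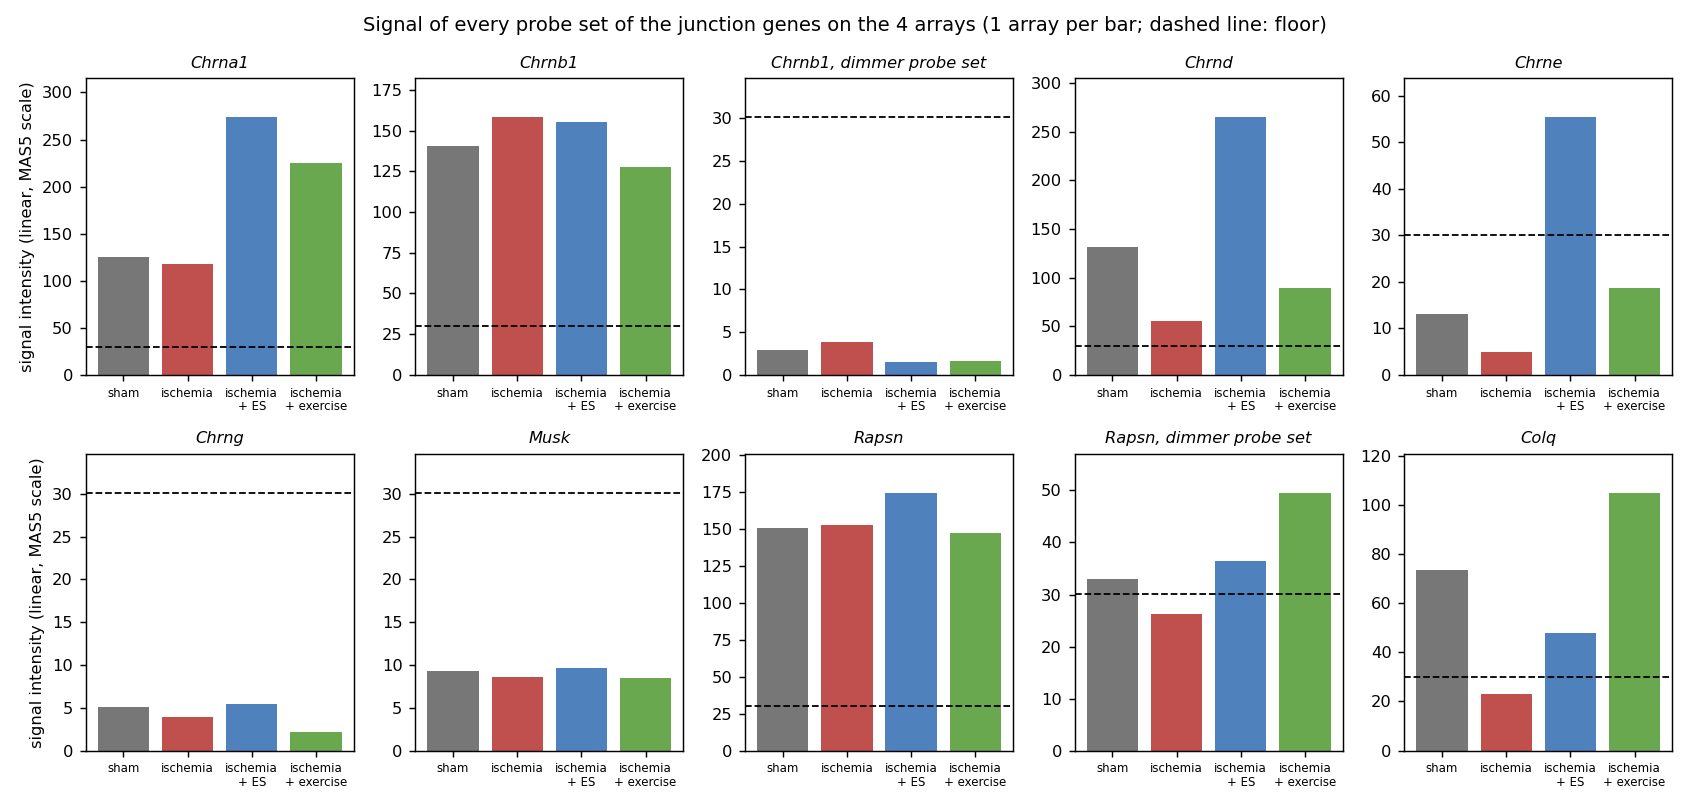
Signal intensity (linear scale, from 0) of each of the 10 probe sets on the sham, ischemia, ischemia + ES and ischemia + exercise arrays, 1 array per bar, with the floor of 30.1 as a dashed line. Chrna1 stands at 274 and 225 on the treated arrays, Chrnd at 265 with ES, and Colq at 105 with exercise, while Chrnb1 and the brighter Rapsn probe set differ little. Heights are not comparable between panels.

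The promoter windows of these subunit genes are shown because Chrna1, Chrnd and Chrne were at their highest together on the ES array while Chrnb1 was not. RefSeq's table for the GRCr8 build held windows (250 bases before to 50 after the annotated start) for 7 of the 9 genes, with none for Rapsn or Colq. The windows lie at chr3:78877304-78877603 (minus strand) for Chrna1, chr9:95310066-95310365 (plus strand) for Chrnd, chr10:55834105-55834404 (minus strand) for Chrne and chr10:55015058-55015357 (minus strand) for Chrnb1. Capitals mark E-boxes of the forms CAGCTG and CACCTG (or CAGGTG, the same site on the other strand) and the N-box CCGGAA (or TTCCGG).
Chrna1: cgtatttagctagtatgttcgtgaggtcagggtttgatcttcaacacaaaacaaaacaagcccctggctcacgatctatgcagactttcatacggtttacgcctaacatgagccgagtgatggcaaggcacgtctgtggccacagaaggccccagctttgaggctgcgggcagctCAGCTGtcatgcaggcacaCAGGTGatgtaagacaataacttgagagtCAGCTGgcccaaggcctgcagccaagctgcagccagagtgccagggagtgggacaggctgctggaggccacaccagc
Chrnd: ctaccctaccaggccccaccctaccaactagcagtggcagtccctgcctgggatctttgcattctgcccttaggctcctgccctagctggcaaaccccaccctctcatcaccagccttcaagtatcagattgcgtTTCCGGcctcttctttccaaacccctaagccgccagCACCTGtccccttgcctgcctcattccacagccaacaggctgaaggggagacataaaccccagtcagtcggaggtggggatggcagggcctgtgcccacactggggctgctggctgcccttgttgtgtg
Chrne: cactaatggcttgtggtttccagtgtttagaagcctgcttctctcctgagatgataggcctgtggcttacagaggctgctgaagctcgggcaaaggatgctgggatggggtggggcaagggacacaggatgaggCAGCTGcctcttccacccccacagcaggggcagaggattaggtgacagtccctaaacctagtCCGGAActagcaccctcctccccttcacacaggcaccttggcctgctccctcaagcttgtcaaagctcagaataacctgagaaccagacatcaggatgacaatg
Chrnb1: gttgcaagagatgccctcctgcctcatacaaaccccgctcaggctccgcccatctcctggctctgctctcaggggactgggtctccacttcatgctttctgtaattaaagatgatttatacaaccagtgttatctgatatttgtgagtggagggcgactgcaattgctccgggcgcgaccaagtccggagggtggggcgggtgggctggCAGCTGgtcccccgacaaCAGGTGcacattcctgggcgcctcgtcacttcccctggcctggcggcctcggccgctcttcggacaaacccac

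The Chrna1 window holds CAGCTG at -75 to -70 and at -27 to -22, with CACCTG at -56 to -51 between them, counted from the start. The Chrnd window holds CACCTG at -79 to -74 and an N-box at -115 to -110. The Chrne window holds CAGCTG at -116 to -111 and an N-box at -54 to -49. The Chrnb1 window, of a gene that differed by 1.24-fold at most, holds CAGCTG at -41 to -36 and CACCTG at -23 to -18. E-boxes of these forms are therefore present in the windows of subunit genes that were high with ES and of one that was not. An N-box is found in Chrnd and Chrne alone among the 7 windows.

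Such matches are common. Of 33469 windows of the same length, 72.1% hold the general E-box CANNTG, of which the other E-box forms are cases, and 15.1% hold CAGCTG, 18.8% CACCTG and 15% the N-box, searched on both strands. At least 2 matches to CAGCTG, as in Chrna1 and Chrng, stand in 1.69% of windows. The Chrng window holds CAGCTG at -26 to -21 and across the start, and that of Ache holds a general E-box and neither of the marked forms. Chrnd and Chrng are direct neighbours in the RefSeq gene order, with 0 genes between them.

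**Figure D2:**
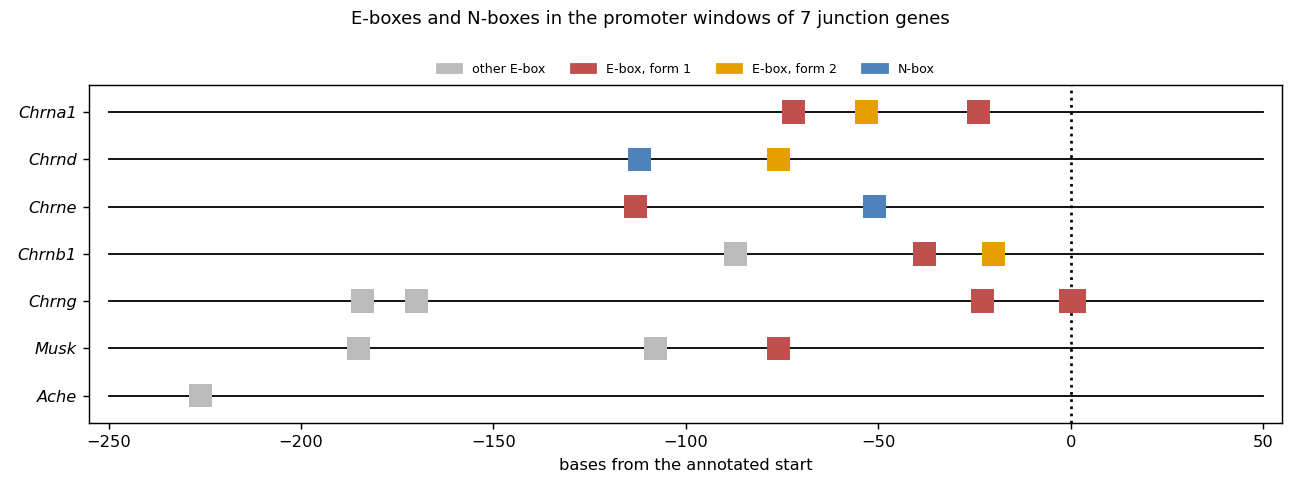
Positions of E-boxes and N-boxes, in bases from the annotated start (dotted line), in the windows of 7 junction genes. Form 1 is CAGCTG, form 2 is CACCTG on either strand, and grey marks any other CANNTG. N-boxes appear in Chrnd and Chrne, and the 3 E-boxes of Chrna1 all lie within 75 bases before the start.

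Among the junction organisers, Rapsn differed little between arrays on its brighter probe set and Musk was under the floor. Rapsn encodes rapsyn, which anchors the receptor below the membrane. Its brighter probe set gave 151 in sham, 153 with ischemia, 174 with ES and 147 with exercise, a range of 1.18-fold. Its dimmer probe set, close to the floor, gave 33.0, 26.2, 36.3 and 49.5 in that order, so the highest array was ES on one probe set and exercise on the other. Musk encodes the receptor kinase that agrin activates, and its signals of 8.48 to 9.67 were all under the floor.

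Colq, the collagen that ties acetylcholinesterase to the synaptic basal lamina, followed another order of arrays. Its signal was 73.4 in sham, 23.1 with ischemia, 47.9 with ES and 105 with exercise. Sham and exercise were thus above ES, and ischemia was under the floor. Colq was at least 2.44-fold lower with ischemia than in sham and at least 3.49-fold higher with exercise than with ischemia. With ES it was at least 1.59-fold higher than with ischemia, and 2.19-fold lower than with exercise. With a pseudocount of 16 in place of the floor the last ratio was -0.92 in log2, short of 2-fold.

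Of the 9 genes, only the 6 above the floor could be counted, and the shares of all genes likewise cover genes above it. Each comparison held at most 2 members past 2-fold in a direction. With ischemia against sham 2 were lower (Chrnd and Colq) and 0 higher, where 0.862% of all 10092 genes were lower and 0.783% higher. With ES against ischemia 2 were higher (Chrna1 and Chrnd) and 0 lower, beside 2.28% and 0.793% of all genes. With exercise against ischemia 1 was higher (Colq) and 0 lower, beside 1.14% and 0.872%. Between the treatments, ES was higher for Chrnd and lower for Colq, beside 2.95% and 1.1% of all genes. Against sham, ES was higher for Chrna1 and Chrnd, beside 3.78% of all genes, and 0 were lower (1.06%), while exercise had 0 in both directions (0.258% higher and 0.188% lower).

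On their brightest probe sets Chrna1, Chrnb1, Chrnd, Rapsn and Colq had mean signals at percentiles 62.0 to 78.8 of all probe sets. Each of these means lay between the floor and 10 times the floor, while that of Chrne, 23.0, was under it. Among the 5962 genes with a mean signal from the floor to 10 times the floor, a range set after the values were seen, 2.92% were at least 2-fold higher with ES than with ischemia and 3.86% higher with ES than with exercise. The median log2 ratio of the 6 genes above the floor was 0.77 with ES and 0.34 with exercise against ischemia, where that of all genes was 0.05 and 0.00. It was -0.05 for ischemia against sham, where Chrna1, Chrnb1 and Rapsn were within 1.13-fold and Chrne was under the floor on both arrays.

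**Figure D3:**
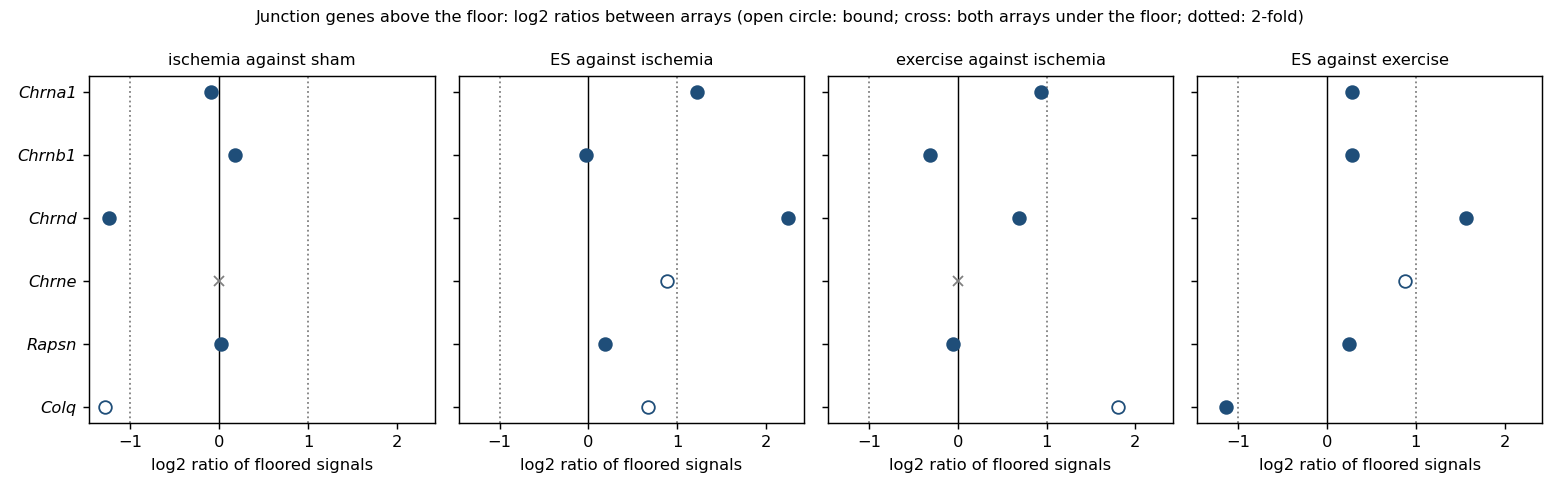
Log2 ratios of floored signals for the 6 junction genes above the floor, in 4 comparisons between arrays; filled circles are measured on both arrays, open circles are bounds, crosses mark both arrays under the floor, and dotted lines mark 2-fold. Chrnd reaches -1.24 with ischemia and 2.25 with ES, Colq reaches -1.13 between ES and exercise, and Chrnb1 and Rapsn stay near 0.

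Ratios between members on the same array do not depend on a single scaling factor per array. Chrnb1 and Rapsn were taken as references because their range was the narrowest among members above the floor on these same arrays. The ratios therefore stay close to those above by construction and are no separate support. The Chrnd to Chrnb1 ratio was 4.86-fold higher with ES than with ischemia and 1.99-fold higher with exercise. The Chrna1 to Chrnb1 ratio was 2.38-fold and 2.37-fold higher, respectively. Relative to beta, the factor for alpha was thus close on the treated arrays and that for delta was larger with ES. Against the brighter Rapsn probe set the same ratios were 4.17-fold and 1.67-fold for Chrnd and 2.04-fold and 1.99-fold for Chrna1.

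Other junction genes were counted in the same way, each by its brightest probe set. The shares of all genes given above for each comparison apply to this list and to the lists below. Of 36 such genes listed, 32 had a probe set and 27 were above the floor. With ES against ischemia 1 of 27 was past 2-fold, Nid2, which encodes a basal lamina nidogen and was 2.57-fold higher. The list's median log2 ratio was 0.15, with that of all genes at 0.05, and 2.28% of all genes were higher past 2-fold. With ischemia against sham, and with exercise against ischemia, 0 of 27 passed in either direction and both medians were 0.00. A dimmer probe set of Dtna, the dystrobrevin gene, gave 272 in sham, 114 with ischemia, 181 with ES and 200.2 with exercise, which is 2.39-fold lower with ischemia than in sham, while its brightest probe set was 1.09-fold higher. Between ES and exercise 3 were higher and 0 lower: Nid2 (3.83-fold), the kinase gene Pak1 (2.33-fold) and the laminin gene Lama4 (2.0-fold). The list's median was then 0.17, beside 0.03 for all genes, of which 2.95% were higher past 2-fold. Against sham, 4 were higher with ES and 0 lower: Nid2 (2.89-fold), Pak1 (2.56-fold), Agrn (2.22-fold) and Lama4 (2.15-fold). For ES against sham the list's median was 0.24, beside 0.05 for all genes, of which 3.78% were higher past 2-fold. Nidogens and laminins also belong to vessel walls, and the summed endothelial marker signal was 4579 on that same array; its part in these ratios was not tested.

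In the agrin pathway, Agrn gave 78.0 in sham, 106 with ischemia, 173 with ES and 98.7 with exercise. It was 1.63-fold higher with ES than with ischemia and 2.22-fold higher than in sham. Lrp4, the agrin receptor gene, gave 87.5, 76.1, 108 and 84.6 in the same order, and Dok7, the Musk adaptor gene, 232, 213, 251 and 190. For both, ES was the highest array, by at most 1.41-fold over ischemia. Of the neuregulin pathway, Nrg1, Erbb3 and Erbb4 were under the floor on every array, and Erbb2 reached 30.9 with ES, just above it. Utrn, encoding utrophin of the postsynaptic membrane, was likewise above the floor with ES alone, at 31.3.

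Genes tied to denervated or silent muscle did not move as a block. Of 18 listed, 15 had a probe set, all above the floor. With ES against ischemia 3 were higher and 0 lower: Sln, the sarcolipin gene (9.76-fold), Cdkn1a, the p21 gene (3.35-fold), and Myog, the myogenin gene (3.23-fold). Myog gave 228 in sham, 159 with ischemia, 514 with ES and 192 with exercise, so its arrays stood in the order of Chrnd. That order is not particular to these genes: the myelin genes Mbp (205, 121, 209 and 132) and Pmp22 (1003, 793, 1062 and 958) had it too. The share of all genes with it was not counted, and a link between Myog and Chrnd was not tested. The median of the list was 0.25, beside 0.05 for all genes, of which 2.28% were higher past 2-fold.

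Hdac4, whose product acts upstream of myogenin in denervated muscle, gave 49.3, 57.8, 61.6 and 48.9 in the same order of arrays, and Runx1 gave 304, 446, 423 and 289. A dimmer Runx1 probe set gave 28.8, 70.9, 92.6 and 28.3, under the floor in sham and with exercise. On it ES was at least 3.07-fold above both of those arrays and ischemia at least 2.35-fold, where on the brighter one ES was 1.39-fold above sham and 1.46-fold above exercise. Myod1 gave 938, 756, 630 and 495, lower on both treated arrays than on both others. The ubiquitin ligase genes Trim63 and Fbxo32, which rise in atrophy, were within 1.37-fold between ES and ischemia. Gadd45a, which rises on denervation, gave 178, 242, 433 and 173, which put ES 1.78-fold above ischemia and 2.50-fold above exercise. Dach2 had no probe set of its own.

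With exercise against ischemia, 2 genes of that list were higher, Sln (11.8-fold) and Tnfrsf12a (4.08-fold), and 1 was lower, Ankrd1 (10.9-fold). With ischemia against sham Ankrd1 was 10.6-fold higher and Sln 20.8-fold lower. Between ES and exercise 4 were higher and 1 lower. Ankrd1 (17.1-fold), Cdkn1a (3.85-fold), Myog (2.68-fold) and Gadd45a were higher with ES, and Tnfrsf12a was 2.71-fold lower. The list's medians were -0.14 with exercise, -0.08 with ischemia and 0.32 between ES and exercise, where those of all genes were 0.00, 0.00 and 0.03.

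Of 17 embryonic and regenerating fibre genes listed, 12 had a probe set, all above the floor. With ES against ischemia 5 of 12 were higher past 2-fold and 0 lower, with a median log2 ratio of 0.80 beside 0.05 for all genes. Of all genes, 2.28% were higher past 2-fold. Myh8, the perinatal myosin gene, was 27.7-fold higher, Myh3, the embryonic one, 3.43-fold, Tnnt2 3.0-fold and Igf2 2.09-fold, besides Myog, which stands in both lists. The others were within 2-fold, from a log2 ratio of -0.26 for Myod1 to 0.90 for Cdkn1c. With exercise against ischemia 0 were higher and 1 lower, Cdkn1c (2.60-fold), with a median of -0.36. With ischemia against sham Myh8 alone was past 2-fold, 2.34-fold higher, and Cdkn1c (1.998-fold) and Igf2 (1.96-fold) were just short of it. There 8 of the 12 ratios were above 0 and 4 below, with a median of 0.13 beside 0.00 for all genes. Between ES and exercise 8 were higher and 0 lower, led by Myh8 (53.2-fold), Cdkn1c (4.85-fold), Myh3 (4.13-fold), Tnnt2 (at least 3.74-fold) and Igf2 (3.60-fold). The list's median was 1.425 there, beside 0.03 for all genes, of which 2.95% were higher past 2-fold.

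On the exercise array Chrna1 and the myosin genes of this list differed in direction: Chrna1 was 1.92-fold higher there than with ischemia, whereas Myh3 was 1.20-fold and Myh8 1.92-fold lower. Myh3 gave 170 in sham, 180 with ischemia, 617 with ES and 150 with exercise, and Myh8 gave 36.9, 86.4, 2393 and 45.0. Of 6 satellite cell markers listed, 4 had a probe set, with a summed signal of 685 with ES and 578 to 596 on the other arrays.

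**Figure D4:**
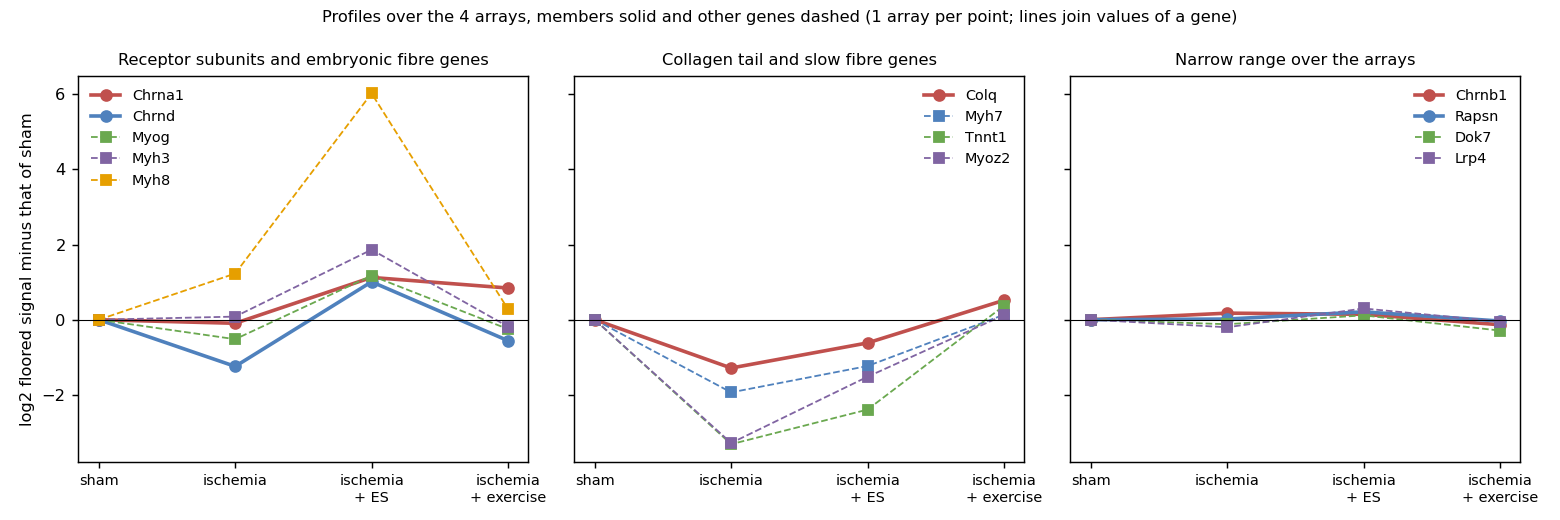
Log2 floored signal on each array minus that in sham, for members (solid lines) and for genes of the lists (dashed lines), 1 array per point. Chrnd and Myog share the order of arrays, with ES highest and ischemia lowest, as do genes not plotted, such as Mbp and Pmp22. Colq runs with the slow fibre genes Myh7, Tnnt1 and Myoz2, low with ischemia and high with exercise. Chrnb1, Rapsn, Dok7 and Lrp4 stay near 0.

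Colq stood beside the slow fibre genes. On their brightest probe sets all 10 slow fibre genes were lower with ischemia than in sham and all 10 higher with exercise than with ischemia past 2-fold, and with ES 4 of 10 were higher than with ischemia. Between ES and exercise 8 of 10 were lower and 0 higher, as Colq was. Tnnt1, the slow troponin T gene, gave 6702 in sham, 676 with ischemia, 1278 with ES and 8659 with exercise, the same order of arrays as Colq. For Tpm3 the brightest probe set gave 3756, 160, 180 and 4794 in that order. A dimmer one gave 360, 352, 383 and 480 and another 264, 278, 315 and 460, all within 2-fold. Dimmer probe sets of Myh7, Tnni1 and Casq2 did pass 2-fold for ischemia against sham and for exercise against ischemia. A dimmer Myl2 probe set, under the floor with ischemia, was at least 1.41-fold lower there than in sham and at least 1.99-fold lower than with exercise. A dimmer Atp2a2 probe set, also under it with ischemia, gave at least 1.86-fold and 2.24-fold. Other dimmer Atp2a2 probe sets passed 2-fold in both comparisons. Of the 13 fast fibre genes measured, 0 passed 2-fold in these 4 comparisons on their brightest probe sets, and a dimmer Tnnt3 probe set was 2.02-fold lower with exercise than with ischemia.

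Few neuronal receptor and motor axon genes were above the floor. Of 16 neuronal nicotinic and muscarinic receptor genes, all with a probe set, 1 was above the floor on any array, Chrna7, at 32.2 with exercise. Of 12 motor axon genes, 11 had a probe set and 3 were above the floor on an array, Gap43, Prph and Nefh, with 0 past 2-fold in any comparison. Chat and Slc18a3, which mark cholinergic terminals, were under the floor throughout. Of 12 Schwann cell markers, 9 had a probe set and 4 were above the floor on every array, with a summed signal of 1454 in sham, 1112 with ischemia, 1514 with ES and 1269 with exercise. The myelin genes Pmp22 (793 to 1062), Mbp (121 to 209) and Prx (78.5 to 129) were well above the floor on every array. Pmp22 alone gave 1003 of the summed 1454 in sham. S100b, the other marker above the floor, was lowest with ES (44.2) and highest with exercise (64.1). Mag, also a myelin gene, Sox10 and Ngfr were under the floor, and the share of nerve in each piece was not tested.

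Members were taken whose floored signal ranged over at least 2-fold and which were above the floor on at least 1 array. The candidates were 8773 other genes above the floor on every array (8774 for Colq). For each member the 3 candidates with the most similar profile over the 4 arrays were taken. Likeness was the root mean square difference of centred log2 signals. For Chrna1 they were Lpar6 (0.05), Amigo3 (0.08) and Rab3a (0.08), and 87 genes lay within 0.25. For Colq they were Spsb4 (0.10), Asb18 (0.12) and Xirp1 (0.14), with 21 genes within 0.25. The ischemia signal of Colq, 23.1, entered at the floor, so its profile is a bound on that array. For Chrnd the nearest, Prcd (0.25), Cyp4b1 (0.26) and Cox7a1 (0.27), were farther away, and 0 genes lay within 0.25. With 4 arrays these names are a description of the arrays and no more.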

How the data were processed

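The authors deposited linear signal intensities, 1 per probe set and array. The submitters' processing notes name MAS5 with no version, and the 2% trimmed mean was 150.07 on every array, so a difference in total mRNA cannot be seen. Per the labels' protocols, labelling used a 3' priming kit. Of 31099 probe sets, 20832 carried 1 symbol in the 2016 platform annotation, 436 several (not named here) and 9831 none.

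Intensities were brought to a common 2% trimmed mean, floored at the 50th percentile (30.1) and taken to log2 (Python 3.11.15). A gene was represented by its probe set of highest mean. Genes past 2-fold between 2 arrays were counted, and "at least" marks a ratio with 1 array at the floor. With 1 array per group no test was run, and the number of arrays limits the precision. The calculation was tested on simulated arrays, in which only genes well above the floor were changed, by more than 2-fold. That test does not cover changes near the floor or ratios near 2-fold. Members and lists were chosen with earlier results of these data known. List genes named are those past 2-fold, up to 5 by size, and a set of regulators. Trim63, Fbxo32, Chat, Slc18a3, Sox10, Ngfr, Gap43, Prph, Nefh, Chrna7, Pmp22, Mbp, Prx, Mag and S100b were named after their values were seen. So were Dtna, Tnnt3, Tpm3, Tnni1, Casq2, Myl2, Atp2a2 and the plotted slow genes. There were 9 alternatives: quantile or cyclic loess normalization (limma 3.58.1), other floors (30th and 70th percentile), thresholds (1.5-fold and 3-fold), the mean of a gene's probe sets, no _s_at or _x_at probe sets, and log2(signal + 16) without a floor.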

Additional observations from a re-analysis of the deposited data

How the results depend on the processing

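Of 108 counts of members under the alternatives, 89 stayed within 1.5 times the reported count, and no ratio of a member past 2-fold changed sign in any of the alternatives run. The 89 include counts of 0 that stayed 0. No member probe set is of the _s_at or _x_at type, so leaving those out could change no count of members. A floor at the 70th percentile (a signal of 101.7) lies above most signals of Colq and several of Chrnd: it left 0 members lower with ischemia, 0 higher with exercise and 0 lower between ES and exercise. A floor at the 30th percentile counted 4 higher with ES against ischemia and 2 against exercise, adding Chrne, and Colq against ischemia. At 1.5-fold the counts were 4 higher with ES and 3 with exercise against ischemia, 2 higher with ES against exercise, and against sham 1 lower with ES and 1 higher with exercise. The share of all genes was not counted under the alternatives, so counts at other thresholds and floors cannot be weighed against it. At 3-fold they were 0 lower with ischemia, 1 higher with ES against ischemia (Chrnd), 0 in either direction between the treatments and 0 higher with ES against sham. Against sham, quantile and loess normalization each left 1 higher with ES. With a pseudocount of 16 and no floor, 2 were higher and 0 lower with ES against exercise. Chrna1 stayed past 2-fold between ES and ischemia (log2 1.12 to 1.22) in the 7 settings other than the thresholds. Between exercise and ischemia it stayed short of 2-fold (0.85 to 0.96). Only the normalizations and the pseudocount could change these ratios, because Chrna1 has 1 probe set, above every floor used on each array. Of 756 counts of the other lists, 700 were within 1.5 times, counts of 0 that stayed 0 included. No paired analysis was possible because each group has 1 array. Signals under the floor limit what can be said of Chrne, Chrng and Musk.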
